A study of Mus musculus with 18 samples.

Results

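Mast cells store proteases and histamine in their granules, and 10 genes for these products and for the receptors through which the cells grow and are triggered were followed here through UV skin carcinogenesis in the mouse. The genes were the chymases Mcpt2, Mcpt4 and Cma1, the tryptases Tpsb2 and Tpsab1, the carboxypeptidase Cpa3, the growth factor receptor Kit, the IgE receptor chains Fcer1a and Ms4a2, and the histidine decarboxylase Hdc. They were chosen by name with earlier results of these data known, and all 10 were found among the 14521 named genes of the table. The animals were 6 female littermates of the outbred SKH-1E hairless strain, numbered 2, 3, 7, 8, 9 and 10, all irradiated with UV from a solar simulator. From every mouse came 1 library each of irradiated skin (CHR), papilloma (PAP) and squamous cell carcinoma of the skin (SCC). Each group thus had n = 6. The irradiated skin was free of lesions, and a papilloma is a benign epidermal growth. All 3 groups had been irradiated, and skin of unirradiated mice was not analysed here. Whether a lesion library came from a single lesion is not stated in the sources used here. The rise of Mcpt2 in carcinomas was already known when the genes were chosen, so its values in every comparison, and every ratio that holds it, are given as a description with no test.

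Mouse mast cells are divided by their proteases. Connective tissue mast cells, the resident type of the dermis, store the chymases Mcpt4 and Cma1, the tryptases Tpsb2 and Tpsab1, and Cpa3. Mucosal mast cells, best known from the gut epithelium, store the chymases Mcpt1 and Mcpt2 and expand under cytokines in parasite infection. Both depend on Kit, the receptor of stem cell factor, and both are triggered by antigen that crosslinks IgE on the receptor formed by Fcer1a, Ms4a2 and Fcer1g.

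The libraries held 15.4 to 20.98 M recovered reads, and normalised reads are reads recovered from the deposited scores and divided by the size factor of the library. Fold changes and their standard errors (SE) come from limma on log2(score + 1), a scale that understates changes of weakly expressed genes, and a gene was called at a Benjamini-Hochberg adjusted p under 0.05 over all 14521 genes. In bulk tissue, fewer mast cells and less RNA per mast cell cannot be told apart.

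The chymases lie side by side on chromosome 14. In GRCm38 coordinates the cluster ran over 320.81 kb from Cma1 (chr14:55941451-55944675, minus strand) to the granzyme gene Gzmb. Behind Cma1 came Cma2, Mcpt1 (chr14:56017971-56020384, plus strand), Mcpt9, Mcpt2 (chr14:56042041-56044642, plus strand) and Mcpt4 (chr14:56059629-56062313, minus strand). Only 14.986 kb separated the ends of Mcpt2 and Mcpt4. The tryptase genes lie on chromosome 17, Tpsab1 at chr17:25343245-25345562 on the minus strand and Tpsb2 at chr17:25366305-25369098 on the plus strand. Cpa3 lies at chr3:20215620-20242181 on the minus strand.

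The 250 bases before the start site are shown for the mucosal chymase Mcpt1 and for 3 proteases of the connective tissue type, because the first 2 of them are close copies whose genes differed in direction in these tissues. Sequences are those of RefSeq (GRCm38.p6), 5′ to 3′ on the strand of the gene. Capitals mark GATA boxes, that is GATAA or, read on the other strand, TTATC, the letters bound by GATA factors such as the mast cell regulator GATA2.
Mcpt1, chr14:56017714-56017963, plus strand: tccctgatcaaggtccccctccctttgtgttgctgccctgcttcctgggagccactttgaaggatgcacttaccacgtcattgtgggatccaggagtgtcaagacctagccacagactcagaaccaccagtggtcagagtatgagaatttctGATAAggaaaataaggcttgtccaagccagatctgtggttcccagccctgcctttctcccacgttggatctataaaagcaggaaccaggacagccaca
Mcpt4, chr14:56062311-56062560, minus strand: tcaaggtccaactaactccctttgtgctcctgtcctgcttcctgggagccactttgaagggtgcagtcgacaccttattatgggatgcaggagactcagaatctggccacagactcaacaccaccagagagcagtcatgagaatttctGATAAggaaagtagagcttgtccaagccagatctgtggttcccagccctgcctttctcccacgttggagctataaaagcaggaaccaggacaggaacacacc
Cma1, chr14:55944676-55944925, minus strand: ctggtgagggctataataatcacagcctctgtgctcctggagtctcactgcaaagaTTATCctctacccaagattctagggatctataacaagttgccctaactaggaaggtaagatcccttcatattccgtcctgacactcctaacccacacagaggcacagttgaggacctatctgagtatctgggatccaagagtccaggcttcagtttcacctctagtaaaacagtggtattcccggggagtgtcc
Cpa3, chr3:20242182-20242431, minus strand: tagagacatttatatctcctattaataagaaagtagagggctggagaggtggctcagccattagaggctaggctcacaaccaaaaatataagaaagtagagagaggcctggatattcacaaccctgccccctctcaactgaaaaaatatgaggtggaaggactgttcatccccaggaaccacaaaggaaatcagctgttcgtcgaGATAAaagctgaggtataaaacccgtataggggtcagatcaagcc

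The Mcpt1 and Mcpt4 sequences were identical at 86.4% of 242 aligned bases. Each held a GATA box, at position -98 in Mcpt1 and -102 in Mcpt4 counted back from the start site, and a TATA box (TATAAA) at -28 and -32. In Cma1 the GATA box stood on the other strand at -194, and in Cpa3 it stood at -45, close to the TATA box at -31. The table of promoters held 7 of the 10 genes, and 5 of these 7 (Mcpt4, Cma1, Cpa3, Fcer1a and Ms4a2) had at least 1 GATA box, against 25.5% of 27025 genes with a promoter of the same length. The Mcpt1 and Mcpt4 transcripts were identical at 85.2% of aligned bases and those of Mcpt1 and Mcpt2 at 81.8%. Of all stretches of 76 bases, Mcpt1, Mcpt2, Tpsb2, Tpsab1 and Cpa3 shared none with a transcript of another gene, Mcpt4 shared 2.42% and Cma1 1.58%. Mcpt9 shared 14.2% and Cma2 34.2%, mostly with each other, so the values of these last genes are uncertain.

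In irradiated skin, per kb of exon, the connective tissue proteases led. Cpa3 stood at 1791 ± 396 normalised reads per kb (SD, n = 6), Cma1 at 1696 ± 475 and Mcpt4 at 1636 ± 359, with overlapping ranges. Within libraries Cpa3 lay above Mcpt4 in 6 of 6 mice, by a log2 ratio per kb of 0.13 ± 0.087 (SD, n = 6), and Cma1 above Mcpt4 in 4 of 6 (0.03 ± 0.14). Tpsb2 followed with 885 ± 339 per kb and was below Mcpt4 in 6 of 6 mice. Fcer1a (264 ± 131) and Tpsab1 (229 ± 195) could not be ordered, since their ranges overlapped. Hdc, Kit and Ms4a2 had lower means of 103, 71.9 and 51.4 per kb, although Tpsab1 lay above Hdc in only 3 of 6 mice. Mcpt2 had the lowest mean, 41.9 ± 52.2 per kb, and lay below Ms4a2 in 4 of 6 mice. In both kinds of lesion Mcpt2 had the highest mean, at 597 ± 597 per kb in papillomas and 1808 ± 2105 in carcinomas, with SDs about as large as the means or larger.

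In papillomas the connective tissue proteases Mcpt4, Cma1, Tpsb2 and Cpa3 fell 5.04- to 12.5-fold in mean level, together with Kit and the IgE receptor chains, while Tpsab1 did not pass the test. Of the 9 genes tested, 7 were lower than in irradiated skin and 0 were higher, with a median log2 fold change of -1.63. Over all genes 51.5% were called in this comparison, 28.7% lower and 22.8% higher, and the median over all genes was 0.0014.

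Mcpt4, the chymase that carries most chymotrypsin-like activity of mouse skin mast cells, ranged from 1339 to 2283 normalised reads in irradiated skin (median 1850) and from 18.9 to 333 in papillomas (median 227). The highest papilloma was below the lowest skin sample, and the fall within mice ran from 4.03-fold in mouse 7 to 74.6-fold in mouse 10. The log2 fold change was -2.99 ± 0.36 (SE, limma adjusted p = 3.41e-06), from a mean 8.87-fold higher in skin.

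Cma1, the chymase whose storage depends on Cpa3, fell as well. Its skin samples ranged from 1188 to 2484 normalised reads (median 1982) and its papillomas from 12.6 to 299 (median 126). The groups did not overlap, and the log2 fold change was -3.34 ± 0.37 (limma adjusted p = 1.53e-06). Cpa3 itself, the most abundant of the genes in skin, ranged from 1932 to 3303 normalised reads there (median 2889) and from 15.7 to 452 in papillomas (median 236). Its groups were separate as well (log2 fold change -3.40 ± 0.37, limma adjusted p = 1.11e-06).

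Of the tryptases, 1 of 2 passed the test. Tpsb2, the main tryptase of connective tissue mast cells, ranged from 679 to 2025 normalised reads in skin (median 1447) and from 24.1 to 532 in papillomas (median 279.8). It was lower in 6 of 6 mice without overlap of the groups, with a log2 fold change of -2.28 ± 0.41 (limma adjusted p = 0.000158). For Tpsab1, the neighbouring tryptase gene, the means were 480 and 421 normalised reads, 3 mice were higher and 3 lower in the papilloma, and the log2 fold change of -0.03 ± 0.56 did not pass the test (limma adjusted p = 0.965). Its skin samples split widely, with 801 to 909 normalised reads in mice 3, 8 and 9 and 49.9 to 143 in mice 2, 7 and 10. Both tryptases were therefore also set against each other within each library, per kb. On the log2 scale Tpsab1 stood at -2.57 ± 1.17 (SD, n = 6) relative to Tpsb2 in skin and at 0.25 ± 0.84 in papillomas. This ratio was higher in the papilloma of 6 of 6 mice, by 1.82 to 5.06.

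The receptors fell too. On the score scale their log2 fold changes were smaller than those of Mcpt4, Cma1, Tpsb2 and Cpa3, but that scale understates weakly expressed genes. In mean normalised reads Ms4a2 fell 5.38-fold, against 5.04-fold for Tpsb2, and Kit and Fcer1a fell 3.75- and 4.38-fold. Kit ranged from 455 to 857 normalised reads in skin (median 626) and from 36.7 to 273 in papillomas (median 173), with no overlap and a log2 fold change of -1.63 ± 0.25 (limma adjusted p = 3.73e-05). Per library, the log2 ratio of Kit to Cpa3 per kb was higher by 1.96 ± 0.68 (SD, n = 6) in papillomas than in skin, in 6 of 6 mice. Fcer1a, the chain that binds IgE, ranged from 139 to 465 normalised reads in skin and from 8.39 to 143 in papillomas. Those ranges met because mouse 7 had as much in its papilloma as in its skin, and the log2 fold change was -1.44 ± 0.32 (limma adjusted p = 0.00126). Ms4a2, the signal-amplifying beta chain, ranged from 80.2 to 208 normalised reads in skin and from 4.20 to 61.5 in papillomas, without overlap (log2 fold change -1.38 ± 0.23, limma adjusted p = 7.95e-05). Hdc, which makes histamine and is also active in other myeloid cells, did not pass the test at a log2 fold change of -0.96 ± 0.43 (limma adjusted p = 0.0698). Its papillomas ran from 115 to 1055 normalised reads, and mice 2 and 8 were higher in the papilloma than in skin.

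**Figure D1:**
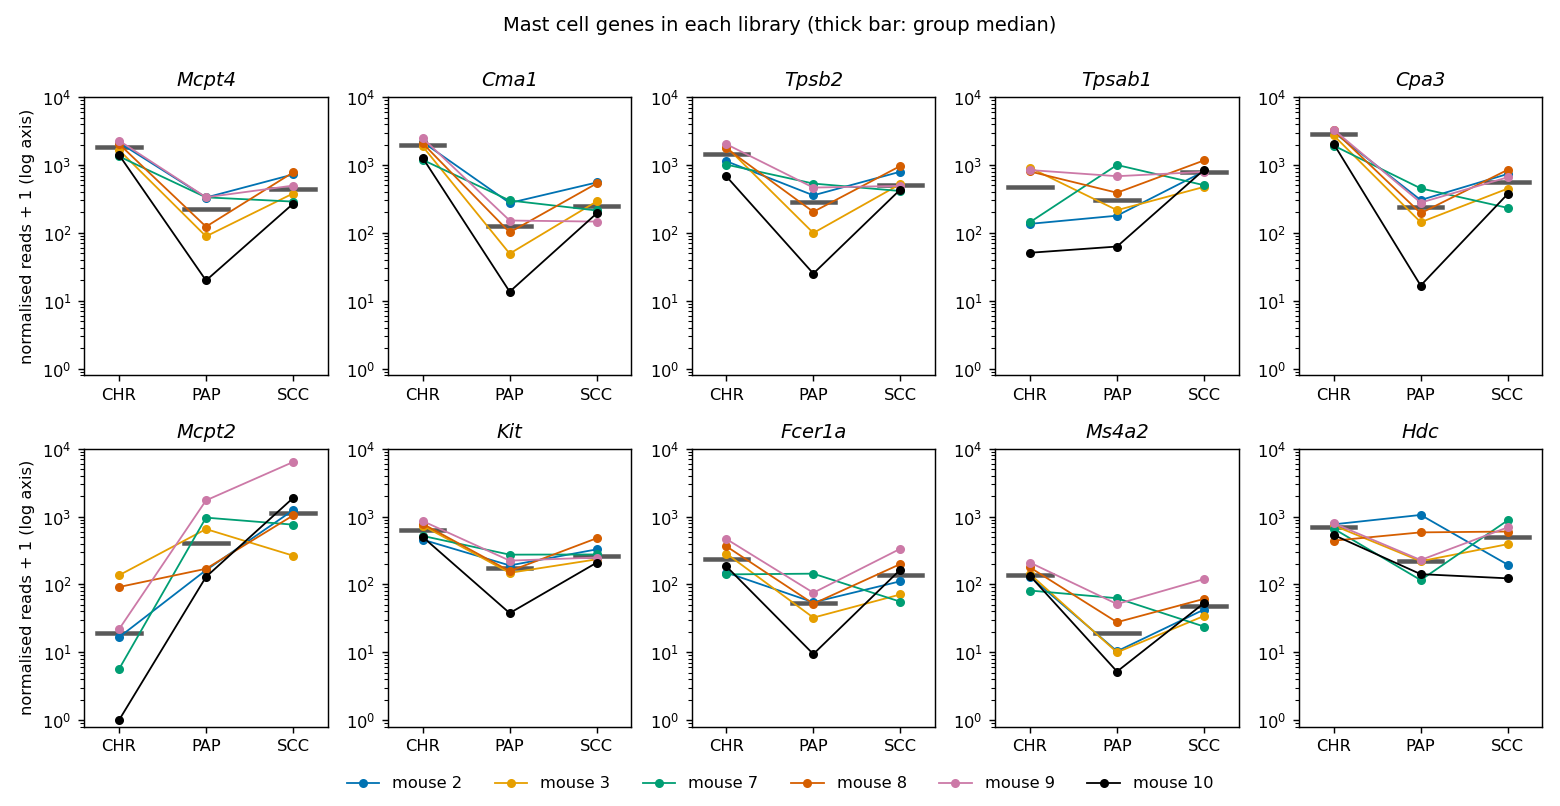
Normalised reads plus 1 of the 10 mast cell genes on a log axis, for irradiated skin (CHR), papilloma (PAP) and carcinoma (SCC). Each coloured line is 1 mouse and each thick bar a group median. Mcpt4, Cma1, Tpsb2 and Cpa3 drop in every papilloma and lie lowest in the papilloma of mouse 10, while Mcpt2 is higher in every lesion than in the skin of the same mouse.

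The mucosal chymase ran the other way. Mcpt2 ranged from 0 to 135 normalised reads in irradiated skin (median 18.2), from 128 to 1729 in papillomas (median 411) and from 264 to 6346 in carcinomas (median 1136). In skin it was highest in mice 3 and 8, and mouse 10 had 0 reads, where a count of 0 allows up to 3 reads or 2.88 normalised reads. The papilloma of mouse 10, with the fewest reads of the other proteases, still held 128 normalised reads of Mcpt2, at least 44.4-fold more than its skin. Mcpt2 was higher in the papilloma than in the skin of 6 of 6 mice, from 1.87-fold in mouse 8 to 207-fold in mouse 7. In carcinomas it was again higher than in skin in 6 of 6 mice, from 1.95-fold in mouse 3 to 305-fold in mouse 9 and at least 650-fold in mouse 10. Against the papilloma of the same mouse it was higher in 4 mice and lower in mice 3 and 7. The log2 fold changes, as a description, were 2.51 ± 0.65 in PAP vs CHR, 3.91 ± 0.65 in SCC vs CHR and 1.40 ± 0.65 in SCC vs PAP (SE).

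Within each library, per kb, Mcpt2 stood on the log2 scale at -6.63 ± 2.46 relative to Mcpt4 in skin (SD, n = 6), at 1.55 ± 1.52 in papillomas and at 1.49 ± 1.56 in carcinomas. The change from skin to papilloma was 8.18 ± 3.01 against Mcpt4, 8.72 ± 3.03 against Cma1 and 7.33 ± 2.81 against Tpsb2, each upward in 6 of 6 mice. From papilloma to carcinoma the same ratios changed by -0.06 ± 1.82, 0.06 ± 2.11 and 0.0005 ± 2.01. They went up in 3, 5 and 4 of 6 mice. The lowest changes, -3.40, -3.86 and -3.69, were all those of mouse 3, and the highest were 1.80, 1.93 and 1.79. The shift in makeup was thus present in papillomas, and its mean moved by less than the spread between mice after that.

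Mcpt1, the other mucosal chymase, was no member of the set and was tested, although it moved with Mcpt2 and does not stand as independent evidence. Its means were 42.3, 627 and 1866 normalised reads in skin, papillomas and carcinomas. It rose in papillomas (log2 fold change 2.31 ± 0.70, limma adjusted p = 0.0106) and in carcinomas against skin (3.42 ± 0.70, limma adjusted p = 0.00116), and its carcinomas ran from 133 normalised reads in mouse 3 to 6891 in mouse 9. Mcpt1 and Mcpt2 stayed close to each other in lesions, with a log2 ratio of Mcpt2 to Mcpt1 per kb of -0.0024 ± 0.28 in papillomas and 0.34 ± 0.50 in carcinomas. Summed per kb over Mcpt4, Cma1, Mcpt1, Mcpt2, Mcpt9 and Cma2, the connective tissue chymases Mcpt4 and Cma1 made up 97.6 ± 2.53% (SD, n = 6) in skin, 26.3 ± 22.4% in papillomas and 29.6 ± 21.3% in carcinomas. Mcpt1 and Mcpt2 together made up 2.32 ± 2.45%, 71.1 ± 21.5% and 67.2 ± 19.8%. Their share in papillomas was lowest in mouse 2, at 34.5%, and in carcinomas it ran from 37.8% in mouse 3 to 90.4% in mouse 9. The sum of all 6 genes was 3417 ± 854 normalised reads per kb in skin, 1583 ± 1345 in papillomas and 4582 ± 4828 in carcinomas, so the carcinoma total was highly uneven between mice.

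**Figure D2:**
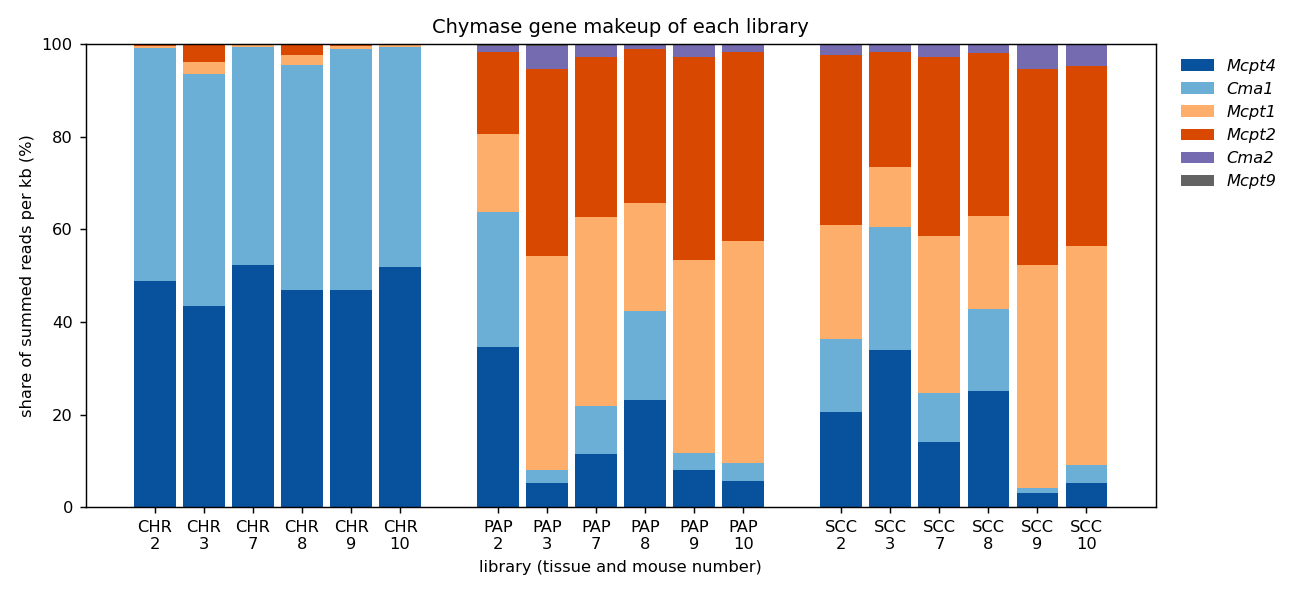
Share (%) of each of 6 chymase genes in their summed normalised reads per kb, 1 bar per library, grouped by tissue with the mouse number below. Blue (Mcpt4 and Cma1) fills at least 93.4% of every skin library, and orange (Mcpt1 and Mcpt2) takes 34.5 to 90.4% of every lesion.

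Along the cluster, Cma1 at the outer end and Mcpt4 fell in both lesions, and the chymase genes between them had higher mean levels in lesions than in skin. Mcpt9, a chymase gene of low level, had 0.19, 6.74 and 21.6 normalised reads on average and was called higher in carcinomas than in skin (log2 fold change 0.78 ± 0.23, limma adjusted p = 0.0121) but not in papillomas (limma adjusted p = 0.0961). Cma2, which was named after its values were seen, had means of 1.98, 48.7 and 206 normalised reads and was called higher in carcinomas than in skin (2.06 ± 0.46, limma adjusted p = 0.00216). Beyond Mcpt4, the basophil protease gene Mcpt8 was lower in papillomas (-0.43 ± 0.13, limma adjusted p = 0.00891). Among the lymphocyte granzymes further along, Gzmc was lower in papillomas (-1.13 ± 0.21, limma adjusted p = 0.000291). It was also lower in carcinomas against skin (-0.65 ± 0.21, limma adjusted p = 0.024). Gzmd, Gzme and Gzmb were higher in carcinomas than in skin, with log2 fold changes of 0.76, 1.11 and 0.92 and Gzmb just past the threshold (limma adjusted p = 0.0497). Gzmd and Gzme were near 0 in skin, so this scale understates them. The means in skin and carcinomas were 0.47 and 19.3 normalised reads for Gzmd, 0.49 and 45.2 for Gzme, and 79.3 and 233 for Gzmb.

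**Figure D3:**
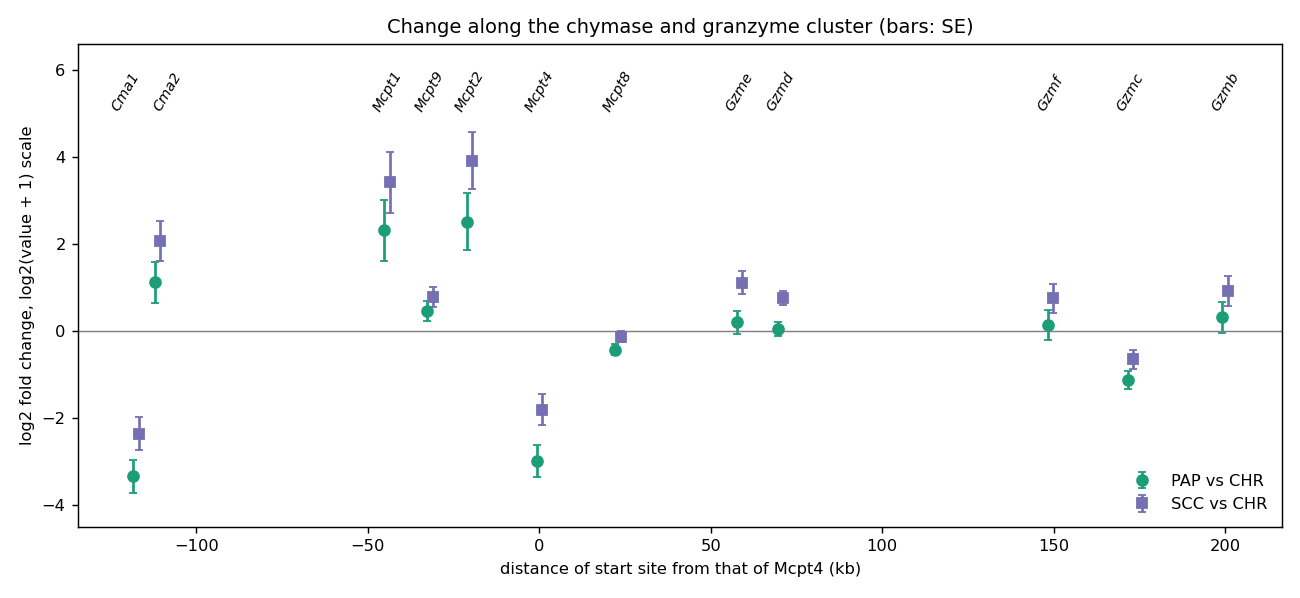
Log2 fold change on the log2(score + 1) scale against the distance (kb) of each start site from that of Mcpt4, for the 12 genes of the cluster in the table. Circles are PAP vs CHR, squares are SCC vs CHR and bars are the SE; Cma2, Mcpt1, Mcpt9 and Mcpt2 lie above 0 between Cma1 and Mcpt4, which lie below it.

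In carcinomas the mean levels of Mcpt4, Cma1, Tpsb2 and Cpa3 lay between those of skin and papilloma. Against skin, 6 of the 9 genes tested were lower and 0 higher, with a median log2 fold change of -0.96, where 36.5% of all genes were called, 21.4% lower and 15.1% higher. Mcpt4 ranged from 267 to 776 normalised reads (median 438), all below the skin samples, with a log2 fold change of -1.81 ± 0.36 (limma adjusted p = 0.000963). Cma1 ranged from 146 to 552 (median 251) and Cpa3 from 232 to 849 (median 552), again without overlap, with log2 fold changes of -2.36 ± 0.37 and -2.23 ± 0.37 (limma adjusted p = 0.000137 and 0.000205). Kit fell by a log2 fold change of -0.96 ± 0.25 and Ms4a2 by -0.87 ± 0.23 (limma adjusted p = 0.00624 and 0.0065), each lower in 6 of 6 mice. Fcer1a was lower in 6 of 6 mice but did not pass the test (-0.61 ± 0.32, limma adjusted p = 0.147), and neither did Hdc (-0.59 ± 0.43, limma adjusted p = 0.296).

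Tpsb2 was called at the edge of the threshold, with 413 to 966 normalised reads in carcinomas (median 507) and a log2 fold change of -1.10 ± 0.41 (limma adjusted p = 0.0416). The call was lost on leaving out mouse 2, 3, 7, 8 or 9, with adjusted p from 0.0554 to 0.133, and held without mouse 10 (adjusted p = 0.0106). Tpsab1 had 474 to 1167 normalised reads in carcinomas (median 798), a narrower range than in skin, and did not pass the test (log2 fold change 1.02 ± 0.56, limma adjusted p = 0.162). In mouse 10 it went from 49.9 in skin through 61.9 in the papilloma to 848 in the carcinoma.

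Between papilloma and carcinoma 0 of the 9 genes passed the test with limma, although all 9 log2 fold changes were above 0, from 0.37 for Hdc to 1.18 for Mcpt4. At an unadjusted p under 0.05, 7 of the 9 were higher, where 3289 of all 14521 genes passed in either direction. With adjustment, limma-voom on recovered reads also called 0 of the 9, as it did over all genes. Few genes were called here in the main fit, 5.58% of all genes, 4.99% higher and 0.592% lower, and that share changed with the fit. Mcpt4 was higher in the carcinoma than in the papilloma of 5 of 6 mice, by 1.49-fold in mouse 9 to 14.1-fold in mouse 10, and mouse 7 was slightly lower. With the mouse as a block, 3 genes passed, namely Mcpt4 (adjusted p = 0.0226), Cpa3 (0.0355) and Tpsb2 (0.0475), in a fit that called 9.85% of all genes. Without mouse 10, whose papilloma was lowest for most of these genes, 2 passed, Mcpt4 (adjusted p = 0.0375) and Cpa3 (0.0498), with smaller log2 fold changes of 0.99 and 0.89, and 14.6% of all genes were called.

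Other genes of the mast cell were read from a list of 22, of which 20 were in the table. In papillomas 17 were lower and 1, Mcpt1, was higher, and the median log2 fold change was -1.34. The shares over all genes were 28.7% lower and 22.8% higher, with a median of 0.0014. Against skin in carcinomas 13 were lower and 2 (Mcpt1 and Mcpt9) higher, with a median of -0.85. There 21.4% of all genes were lower and 15.1% higher, with a median of -0.02. The transmembrane tryptase Tpsg1 went from 84.6 normalised reads in skin to 4.18 in papillomas and 11.5 in carcinomas on average. Mrgprb2, the receptor through which basic peptides and drugs trigger connective tissue mast cells, went from 113 to 6.13 and 14.7, and its relative Mrgprb1 from 486 to 29.0 and 67.0. Each of these 3 was called lower in both comparisons with skin, with log2 fold changes in papillomas of -1.61 ± 0.15, -1.72 ± 0.16 and -2.72 ± 0.27 (limma adjusted p = 3.31e-07, 2.25e-07 and 4.65e-07).

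The transcription factors of the lineage were lower as well. Gata2 fell by a log2 fold change of -1.41 ± 0.13 in papillomas and -0.86 ± 0.13 in carcinomas (limma adjusted p = 2.88e-07 and 9.41e-05), and Mitf by -2.60 ± 0.26 and -1.89 ± 0.26 (4.97e-07 and 3.57e-05). Mitf and Kit also mark melanocytes, of which 0 of 4 measured marker genes were called in papillomas and 1 of 4 in carcinomas against skin (Dct, log2 fold change -1.59 ± 0.57, limma adjusted p = 0.0363). Over all genes 51.5% and 36.5% were called in these 2 comparisons. Within mice, the mean log2 differences of Dct, Tyrp1, Pmel and Tyr in papillomas were -2.56, -1.95, -0.26 and -0.99 (SDs 1.61 to 3.23). In carcinomas against skin they were -4.00, -3.73, -1.29 and -2.42 (SDs 1.30 to 3.62). With this spread, the few calls do not show that melanocyte genes kept their level. The melanocyte part in the falls of Mitf and Kit was not tested. Slc18a2, which loads amines into granules, and Cyp11a1 were lower in both lesions against skin (in papillomas -1.99 ± 0.21 and -2.47 ± 0.24). Il1rl1, the receptor for IL-33, fell in papillomas (-1.92 ± 0.33, limma adjusted p = 0.00012) and rose from papilloma to carcinoma (1.48 ± 0.33, limma adjusted p = 0.0245). In SCC vs PAP, where 4.99% of all genes were called higher, the other listed genes called higher were Gata2, Enpp3, Cyp11a1 and Cd63, 5 in all. That count was 0 by limma-voom, when only the groups compared were fitted, or without mouse 2, 3, 7 or 8, and 2 without mouse 9. The prostaglandin D synthase Hpgds was called in no comparison (limma adjusted p = 0.782, 0.323 and 0.109), with means of 1955, 1902 and 1298 normalised reads.

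**Figure D4:**
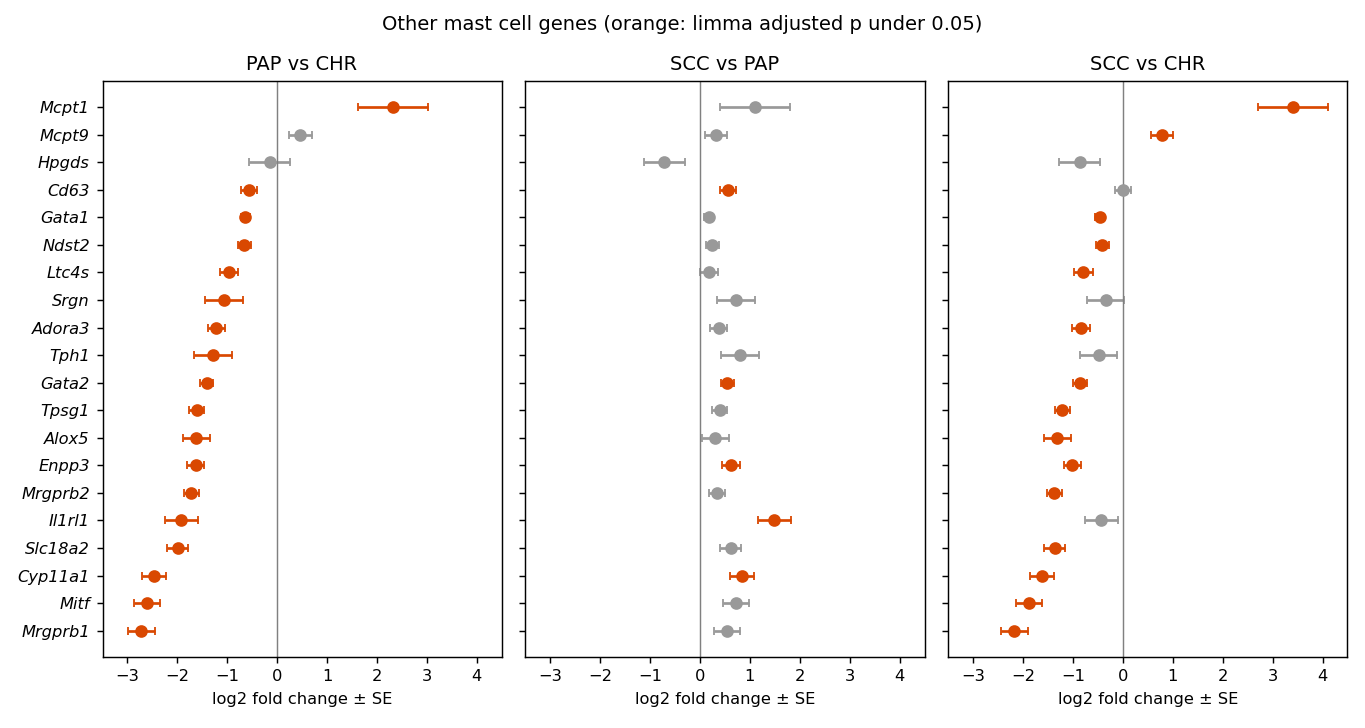
Log2 fold change ± SE on the log2(score + 1) scale of 20 other mast cell genes in the 3 comparisons, orange where the limma adjusted p is under 0.05. In papillomas 17 genes lie left of 0 and are called, Mcpt1 is called on the right, and in SCC vs PAP the 5 called genes lie on the right.

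Downstream of the IgE receptor, 12 of 13 signalling genes were lower in papillomas and 10 in carcinomas against skin. Among all genes, 28.7% and 21.4% were called lower in these 2 comparisons. These genes are shared with other leukocytes. The receptor gamma chain Fcer1g fell from 1323 normalised reads in skin to 209 in papillomas (-2.37 ± 0.31, limma adjusted p = 7.68e-06), and the kinase Syk from 3867 to 676 (-2.44 ± 0.38, limma adjusted p = 4.86e-05). Fcer1g, Lyn and Btk rose from papilloma to carcinoma (1.41, 1.27 and 0.87, limma adjusted p = 0.0245, 0.0414 and 0.0441), where 4.99% of all genes were called higher. That count of 3 became 6 with the mouse as a block and 7 without mouse 10. It was 1 (Fcer1g) without mouse 2 or 9, and 0 by limma-voom, with only the groups compared fitted, or without mouse 3, 7 or 8. The phospholipase gene Plcg1, active in many cell types, was called in no comparison.

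Of 13 factors that feed or direct mast cells, 10 were measured. In papillomas 3 were higher and 2 lower, where 22.8% of all genes were higher and 28.7% lower. In carcinomas against skin 2 were higher and 2 lower, where 15.1% of all genes were higher and 21.4% lower. Kitl, which encodes stem cell factor, the ligand of Kit, was lower in papillomas (-0.83 ± 0.28, limma adjusted p = 0.0215) with 968 and 597 normalised reads. Tslp, Il33 and Itgb6, which epithelial cells make, were higher there, by 10.9-, 2.82- and 1.97-fold in mean. The keratinocyte genes Krt14, Krt5 and Trp63 were higher in papillomas too, by 3.39-, 3.02- and 2.66-fold. Krt10 was lower, and Krt1 was not called. The part of epithelial content in the rise of these factors was not tested. The alarmin Tslp went from 170 to 1859 normalised reads (3.29 ± 0.64, limma adjusted p = 0.000369) and was also higher in carcinomas (2.44 ± 0.64, limma adjusted p = 0.00658). Il33 went from 1898 to 5354 (1.31 ± 0.41, limma adjusted p = 0.0139) and did not pass in carcinomas (limma adjusted p = 0.22). Itgb6, the integrin chain that activates TGF-beta at epithelia, was higher in papillomas (0.85 ± 0.23, limma adjusted p = 0.00457) and carcinomas (0.66 ± 0.23, limma adjusted p = 0.0311), while Tgfb1 was called in neither. Il9r, the receptor of a mucosal mast cell cytokine, was lower in papillomas and carcinomas against skin (-0.63 and -0.54, limma adjusted p = 0.000207 and 0.00155). Il18 was lower in carcinomas against skin (-1.37 ± 0.40, limma adjusted p = 0.0131) and did not pass in papillomas (limma adjusted p = 0.147). Il3, Il4 and Il9 were absent from the table.

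Of 7 measured genes that receive or break down mast cell products, 5 were lower in papillomas, where 28.7% of all genes were lower. The histamine receptors Hrh2 and Hrh4 and the histamine methyltransferase Hnmt were among them (-0.68, -0.87 and -0.80, limma adjusted p = 0.0093, 0.000102 and 0.00121), and Hrh1 was called in no comparison. Ace, which like chymase makes angiotensin II, went from 2459 to 127 normalised reads (-3.79 ± 0.48, limma adjusted p = 5.9e-06) and to 858 in carcinomas.

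Marker genes of other cells moved with these results. In papillomas 5 of 5 macrophage genes, 5 of 5 T cell genes, 7 of 7 skeletal muscle genes, 5 of 6 adipocyte genes and 5 of 7 dermal fibroblast genes were lower than in skin. The shares over all genes in this comparison were 28.7% lower and 22.8% higher. Lists with fewer calls were neutrophils with 2 of 4 genes lower, eosinophils with 2 of 3 and endothelium with 1 of 4 (Pecam1), the endothelial median log2 fold change being -0.16. The summed macrophage level ranged from 19987 to 30812 normalised reads in skin, 865 to 3500 in papillomas and 2225 to 27411 in carcinomas, and the summed T cell level from 616 to 1452, 72.4 to 329 and 221 to 707. The summed muscle level ranged from 387213 to 576710 in skin, 122 to 28180 in papillomas and 345 to 189777 in carcinomas, and the fibroblast level from 137896 to 306445, 4782 to 160770 and 17215 to 496273. Of 5 keratinocyte genes 3 were higher and 1 lower in papillomas. Both measured basophil genes, Mcpt8 and Cd200r3, were lower in papillomas, with sums of 87.7 to 120 normalised reads in skin, 9.86 to 34.4 in papillomas and 23.2 to 80.7 in carcinomas. The third listed basophil gene, Prss34, was absent from the table. Melanocyte sums were 212 to 522 in skin, 30.2 to 1214 in papillomas and 8.96 to 277 in carcinomas, and the melanocyte gene Dct was at 0 in 1 papilloma and 2 carcinomas. Tyr was at 0 in 1 papilloma and 3 carcinomas, and Tyrp1 in 3 carcinomas. No macrophage or T cell gene was at 0 in any library. The part of these tissue differences in the mast cell results was not tested.

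Over the 18 libraries, which share group and mouse, the gene outside the set most like Mcpt4 was Slc18a2 (Pearson r = 0.97 of log2(score + 1)), followed by Dmrt2, Synm, Cyp11a1 and Tcea3 (0.94 to 0.95). Among the members Cpa3 (0.99), Cma1 (0.98), Kit (0.96) and Tpsb2 (0.95) were close to it, Ms4a2 (0.89) and Fcer1a (0.83) less so, and Hdc (0.51), Tpsab1 (0.19) and Mcpt2 (-0.43) stood apart. Most like Mcpt2 were Mcpt1 (0.98), Cma2 (0.95), Nsl1 (0.87), Il19 (0.86) and Mcpt9 (0.85). Tpsab1, with r = 0.61, was the member nearest to Mcpt2.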

How the data were processed

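Total RNA of 18 tissue samples was sequenced. The authors aligned paired reads to mm10 (GRCm38) with MOSAIK, counted them per gene with HTSeq, applied scaling factors and a variance-stabilizing transformation, and deposited whole-number scores on the linear scale of that transformation, in which 0 reads appear as 39. Annotation, versions and strandedness are not given in the sources used here. Weakly expressed genes had been removed before deposit. Reads were recovered by inverting the transformation (zero level 39.13, size factors 0.835 to 1.18), and 99.2% of values came out as whole reads. Of 14542 entries, 21 without a gene name (at most 0.241% of a library) were left out.

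Tests used limma 3.58.1 (R 4.3.3) on log2(score + 1) with a pseudocount of 1, all 18 libraries, 1 coefficient per group and Benjamini-Hochberg adjustment over 14521 genes. This is the fallback fixed for transformed values, and a count model would have been used had counts been deposited. The test is two-sided and was tested on simulated data. Mouse numbers mark the same animal and so pair the samples, but the main fit did not use this pairing. Correlations of deviations between same-numbered samples ran from -0.245 to 0.507, with both signs in every comparison. Alternatives were limma-voom with 2 scalings, a mouse block, only the compared groups, a minimum mean of 10 reads, a pseudocount of 10 and leaving out each mouse.

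The 10 genes and all lists were chosen with earlier results of these data known. Named were all 10 genes, listed genes that passed a test or on which a result turned, and the 5 genes outside the set most correlated with Mcpt4 and with Mcpt2. Annotation was GENCODE M21, promoters were RefSeq (GRCm38.p6), and alignments used Biopython 1.88.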

Additional observations from a re-analysis of the deposited data

Results flagged for a closer look

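The papilloma of mouse 10 stood far from the other papillomas for 2 genes. Cpa3 had 15.7 normalised reads there, against 142 to 452 in the other 5 papillomas, and Kit had 36.7 against 147 to 273. On the log scale the gap to the next papilloma divided by the range of the group was 0.652 for Cpa3 and 0.689 for Kit, above Dixon's critical value for 6 samples. Of 30 groups tested (10 genes in 3 tissues) these 2 passed it, and chance alone marks about 1 in 20. Without mouse 10, 7 of 9 genes were still lower in papillomas than in skin.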

How the results depend on the processing

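The count of the 9 genes called in PAP vs CHR was 7 or 8, and in SCC vs CHR 5 or 6, under every alternative run. In SCC vs PAP the count of 0 became 3 with the mouse as a replicate block, the mouse numbers pairing samples of the same animal, and ran from 0 to 2 on leaving out 1 mouse at a time, 2 being without mouse 10. Of the other mast cell genes called in SCC vs PAP, 5 became 0 in both limma-voom fits and with only the compared groups fitted, and ran from 0 to 5 on leaving out 1 mouse. Over all genes, SCC vs PAP likewise had 0 calls in these 3 fits and without mouse 3, 7 or 8. The cause was not tested. The block changed no other call among the members. On leaving out 1 mouse, the log2 fold change of Tpsab1 in PAP vs CHR ran from -0.51 to 0.31, turning positive without mouse 3, 8 or 9, and that of Hdc in SCC vs PAP from -0.034 without mouse 7 to 0.85. Neither passed the test in any of these fits. The log2 fold changes of Mcpt2 were 4.66, 1.67 and 6.33 for PAP vs CHR, SCC vs PAP and SCC vs CHR by limma-voom, which does not compress low values. The mucosal to connective tissue log ratios moved by less than 1 SD in all 63 recomputations. With 15.4 to 20.98 M reads per library, levels of a few reads, such as Mcpt9 and Mcpt2 in skin, carry the most counting error.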
